A study of Mus musculus with 8 samples.

Results

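The genes described are the matrix-cleaving proteases and their inhibitors in bEnd.3, a line of mouse brain endothelial cells grown in culture. They are the 37 of 15452 named rows of the deposited gene table whose names mark a member of the ADAM, ADAMTS, MMP or TIMP families, or papilin (Papln). The rule uses gene names alone: 12 rows are ADAM genes, 10 ADAMTS genes, 3 ADAMTS-like genes, 8 MMP genes and 3 TIMP genes, and Papln makes 1. Cells received 200 ng/ml recombinant Norrin, 24 h after seeding, or vehicle, and RNA was taken 24 h later from 4 replicate libraries per group. The titles call the control vehicle and set the groups, while another label calls it untreated, and its makeup is not stated. The line was used as cultured, with no genetic change named, and what separated the replicates is not stated, so any p-value reflects library-to-library spread, part of which may be technical.

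ADAM proteases sit in the cell membrane and release the outer parts of growth factors, receptors and adhesion proteins. ADAMTS proteases are secreted, carry thrombospondin repeats and cut proteoglycans, procollagens and other matrix proteins, while MMPs degrade collagens, laminins and other matrix proteins as secreted or membrane-bound enzymes. TIMPs bind the active sites of these metalloproteinases and block them, and TIMP3, which is held in the matrix, also inhibits several ADAM and ADAMTS enzymes. In brain vessels this balance is known for its part in vessel growth and in the loss of basement membrane and barrier after injury. Norrin activates beta-catenin signalling through Frizzled-4.

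Against vehicle, Norrin-treated cells had lower levels of the sheddase gene Adam12, of the inhibitor genes Timp3 and Timp2 and of Papln, and higher levels of the proteoglycan-cleaving protease genes Adamts4 and Adamts9. Adam12 was at 24.9 ± 2.43 CPM under Norrin and 41.8 ± 2.67 CPM under vehicle, and Timp3 at 177 ± 10.6 and 227 ± 2.28 CPM (SD, n = 4 each; CPM is the gene's count scaled to the library's TMM-corrected total). Adamts4 was at 118 ± 9.86 CPM under Norrin and 94.7 ± 2.68 CPM under vehicle. Of the 37 members, 34 had enough counts to be tested, 2 rose, 4 fell and 28 did not pass (edgeR quasi-likelihood test, adjusted p under 0.05 over all 13666 genes tested). Of all tested genes 2.17% were called, 1.2% higher and 0.966% lower, against 17.6% of the members. The members were chosen with earlier results of these data known, and Papln, which the rule names singly, is among those called. The difference in shares therefore carries no test. The members' median log2 fold change was −0.03 and that of all tested genes 0.00, so the members as a list had no shared direction. In these bulk libraries fewer expressing cells and less RNA per cell cannot be told apart.

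The 3 untested members, Adam11, Adamts16 and Adamts17, were left out for low counts. Total counts ran from 13445380 to 14905863 per Norrin library and from 12463942 to 15220576 per vehicle library, and a level of 3 counts lay between 0.193 and 0.241 CPM. All 10 listed endothelial markers were in the table, among them Cdh5 at 2086 ± 60.1 CPM under Norrin and 2109 ± 41.8 CPM under vehicle. Of these 10, Esam rose (log2 0.31 ± 0.04 SE, adjusted p = 1.79e-05, edgeR), Egfl7 fell (−0.16 ± 0.04, 0.0379) and 8 did not pass, of which Pecam1 (−0.10) and Kdr (−0.11) had every Norrin library below every vehicle library. Their summed level was 7399 to 7635 CPM in the Norrin libraries and 7668 to 7915 CPM in the vehicle libraries, so the sum too was lower in every Norrin library, and its part in the members' changes was not tested. The share called among these 10 markers was above the 17.6% of the members and the 2.17% of all tested genes. Neither difference was tested. Of 5 brain endothelial markers 4 were in the table, with sums of 108 to 121 CPM under Norrin and 102 to 126 CPM under vehicle. Of the listed pericyte and fibroblast markers, 3 of 8 and 3 of 6 were in the table, with sums of 3.15 to 4.35 and 7.59 to 9.70 CPM under Norrin and 2.48 to 5.86 and 5.02 to 8.22 CPM under vehicle. Of the macrophage and epithelial markers 1 of 6 and 1 of 5 were in the table, with sums up to 1.33 and 0.585 CPM under Norrin and up to 1.12 and 1.35 CPM under vehicle. None of these markers was at 0 in every library, and the listed defining markers Rgs5, Cspg4, Lum, Dcn, Ptprc and Epcam were not analysed here. Every row has a deposited vehicle RPKM of at least 0.1, while 439 rows lie below that under Norrin, so a member silent under vehicle and switched on by Norrin would not be seen. A RefSeq gene table of the GRCm38.p6 assembly holds 86 protein-coding genes whose names follow the rule, and those without a row were not analysed here.

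Promoter windows, from 250 bases before to 50 after a gene's start, are shown for Timp3 and Timp2, which both fell, and for Papln and Adamts9. They come from RefSeq on GRCm38.p6, a build that may not be the authors', and 22 of the 37 members matched by symbol. Adam12, Adamts4 and Adamts5 were among those without a window, so their promoters were not searched. Capitals mark the GC box GGGCGG, searched on both strands, to which Sp-family factors can bind. The windows lie at chr10:86300162-86300461 (plus strand) for Timp3, chr11:118355362-118355661 (minus strand) for Timp2, chr12:83763384-83763683 (plus strand) for Papln and chr6:92943485-92943784 (minus strand) for Adamts9.
Timp3: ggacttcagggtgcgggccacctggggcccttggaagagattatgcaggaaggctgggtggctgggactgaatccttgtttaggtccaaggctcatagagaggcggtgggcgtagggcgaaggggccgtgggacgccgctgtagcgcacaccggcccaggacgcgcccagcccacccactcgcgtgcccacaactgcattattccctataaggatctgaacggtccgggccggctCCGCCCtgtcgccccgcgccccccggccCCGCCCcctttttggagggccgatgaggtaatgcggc
Timp2: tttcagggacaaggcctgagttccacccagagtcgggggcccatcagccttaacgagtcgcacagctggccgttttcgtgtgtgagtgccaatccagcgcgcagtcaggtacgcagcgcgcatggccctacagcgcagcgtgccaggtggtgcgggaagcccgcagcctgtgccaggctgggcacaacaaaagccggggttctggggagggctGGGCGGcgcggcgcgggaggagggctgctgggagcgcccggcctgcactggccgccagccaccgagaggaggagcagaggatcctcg
Papln: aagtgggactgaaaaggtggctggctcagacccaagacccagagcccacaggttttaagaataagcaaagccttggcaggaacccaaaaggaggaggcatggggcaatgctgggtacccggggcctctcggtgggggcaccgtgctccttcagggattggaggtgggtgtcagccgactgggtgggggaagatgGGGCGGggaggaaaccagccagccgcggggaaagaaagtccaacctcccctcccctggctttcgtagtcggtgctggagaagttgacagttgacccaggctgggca
Adamts9: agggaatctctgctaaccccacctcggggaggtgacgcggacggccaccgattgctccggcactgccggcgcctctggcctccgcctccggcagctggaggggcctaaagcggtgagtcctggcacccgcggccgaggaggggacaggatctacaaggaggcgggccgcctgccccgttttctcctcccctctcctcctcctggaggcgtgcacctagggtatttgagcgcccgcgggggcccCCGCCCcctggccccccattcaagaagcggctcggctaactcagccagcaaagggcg
The GC box was found in 17 of 24 member windows, against 35.7% of all 32851 windows. The core letters to which TCF/LEF factors, the partners of beta-catenin, can bind were searched as CTTTGA and CTTTGT on both strands. Either core was found in 3 of 24 member windows, those of Adam19, Adamts1 and Timp1, and in 31.2% of all windows. The 4 windows above held 61.0 to 70.0% G and C letters, against a median of 52.7% over all windows. Member windows come only from genes with a row, while the full set of windows was not limited in this way. The shares of windows were not matched for base composition or expression. None of the 4 windows above holds either core, which says only that these letters are not there.

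Levels between genes are compared per gene length, on the authors' deposited RPKM, which has 1 value per group and no error. The gene lengths behind it are not known here, and the ranks depend on them. Timp2 was the highest member, with a deposited RPKM of 1015 under Norrin and 1149 under vehicle, followed by Timp3 with 277 under Norrin and 358 under vehicle. The protease genes Adamts1, Adam15 and Adam10 came next, with a deposited vehicle RPKM of 220, 195 and 141, and then Adam9 with 54.4, Mmp15 with 44.1 and Timp1 with 43.7. By vehicle CPM, not scaled by length, Timp3 at 227 lay below Adamts1 at 639, Adam15 at 557 and Adam10 at 317. Timp2, at 762 CPM, was above them. Adamts1, a secreted protease that cleaves versican and restrains vessel growth, held 67.0% of the summed vehicle RPKM of the 10 ADAMTS rows. Mmp15, a membrane-bound MMP, held 58.7% of that of the 8 MMP rows, and Timp2 74.1% of that of the 3 TIMP rows. At the low end, 11 members had a deposited vehicle RPKM below 1.

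**Figure D1:**
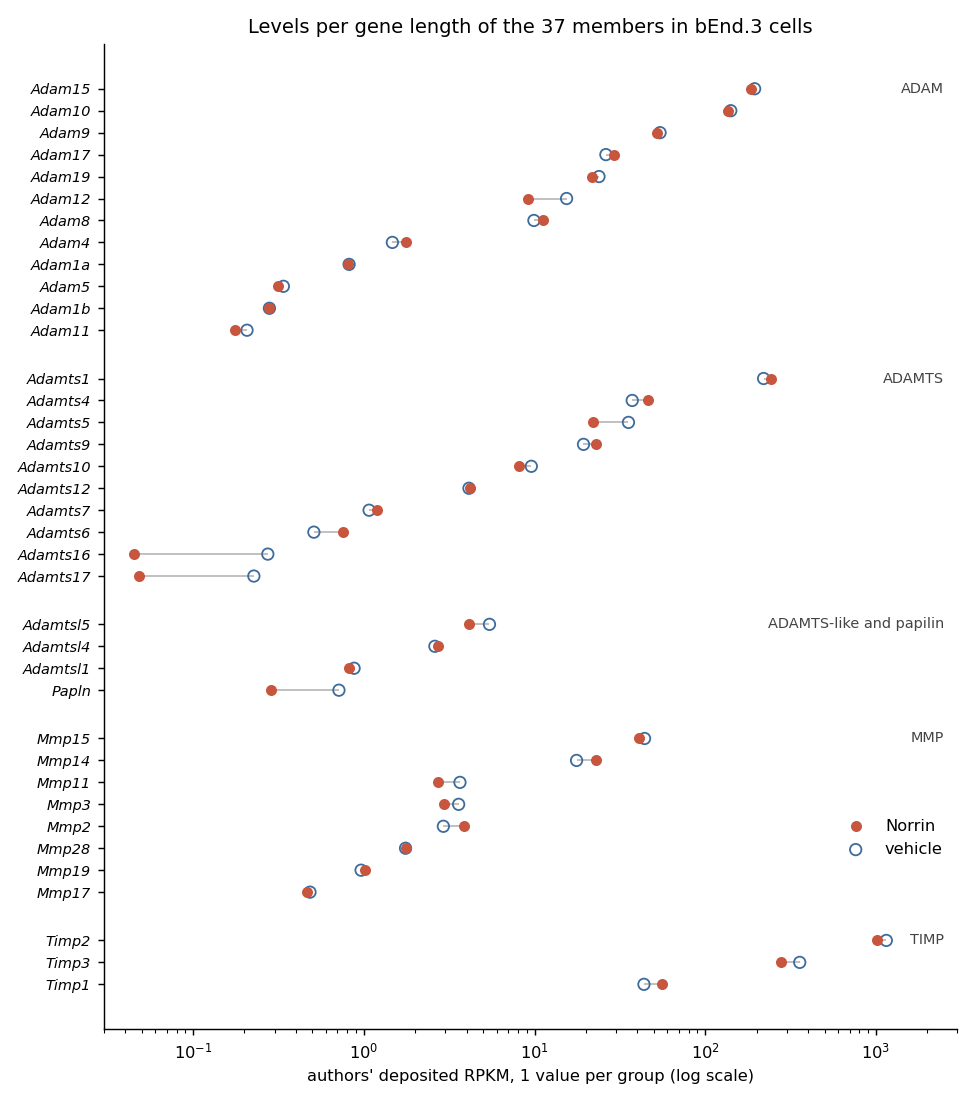
Authors' deposited RPKM of each of the 37 members on a log scale, by family and ordered by vehicle level, with filled points for Norrin and open circles for vehicle. Timp2 is highest, at 1015 under Norrin and 1149 under vehicle, and most pairs lie close together, while Adam12, Adamts5 and Papln lie visibly lower under Norrin. The untested Adamts16 and Adamts17 do too. Every row has a vehicle RPKM of at least 0.1, so a gene below that under Norrin can appear only as lower.

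Of the 11 tested ADAM genes, 1 fell and 10 did not pass (9.09% called, against 2.17% of all tested genes). Adam12 encodes meltrin alpha, a protease known to release the growth factor HB-EGF and to cut IGF-binding proteins. Adam12 measured 21.7, 26.3, 24.3 and 27.2 CPM in Norrin replicates 1 to 4, against 38.4, 43.9, 44.0 and 41.0 CPM in vehicle replicates 1 to 4. Every Norrin library lay below every vehicle library. Its log2 fold change, Norrin over vehicle, was −0.75 ± 0.10 (SE; 0.595-fold, adjusted p = 6.18e-06, edgeR).

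The more abundant ADAM genes did not pass. Adam15, a membrane protease with an integrin-binding domain, was at 531 ± 13.6 CPM under Norrin and 557 ± 13.8 CPM under vehicle (log2 −0.07, 95% interval −0.15 to 0.01). Adam10, the protease that cleaves Notch receptors and sheds VE-cadherin, was at 306 ± 11.5 CPM under Norrin and 317 ± 10.96 CPM under vehicle (−0.05, −0.14 to 0.04). Adam17, which releases tumour necrosis factor from its membrane precursor, was at 95.7 ± 8.68 CPM under Norrin and 96.7 ± 5.22 CPM under vehicle (−0.02, −0.15 to 0.12). Adam9 was at −0.05 (−0.16 to 0.06), so the 95% intervals of these 4 genes were narrow and all held 0.

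Adam19, meltrin beta, was at 59.3 ± 6.33 CPM under Norrin and 65.5 ± 5.10 CPM under vehicle (log2 −0.14 ± 0.08 SE). Adam8, a protease best known from leukocytes, was at 28.6 ± 3.55 CPM under Norrin and 25.5 ± 4.44 CPM under vehicle (0.17 ± 0.12). The groups overlapped in both. Adam4, Adam5, Adam1a and Adam1b, known from the male reproductive tract, were at 0.800 to 4.08 CPM on average under Norrin and at 0.713 to 3.60 CPM under vehicle. The intervals of these were wide, from −1.23 to 1.06 for Adam5 on the log2 scale. Adam1a and Adam1b are neighbouring genes that share the name fertilin alpha, so reads may have been split between them. In GENCODE M21 Adam1a also shares exon sequence with Mapkapk5 on the same strand. Mapkapk5 was at 81.0 CPM under Norrin and 82.5 CPM under vehicle. Adam4 lies within Cox16 on the same strand, without shared exons, and Cox16 was at 13.1 and 13.2 CPM. Whether reads of Mapkapk5 or Cox16 were counted to these members was not tested. Adam11, whose product is known to lack protease activity, had 4 to 9 counts per library in both groups.

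**Figure D2:**
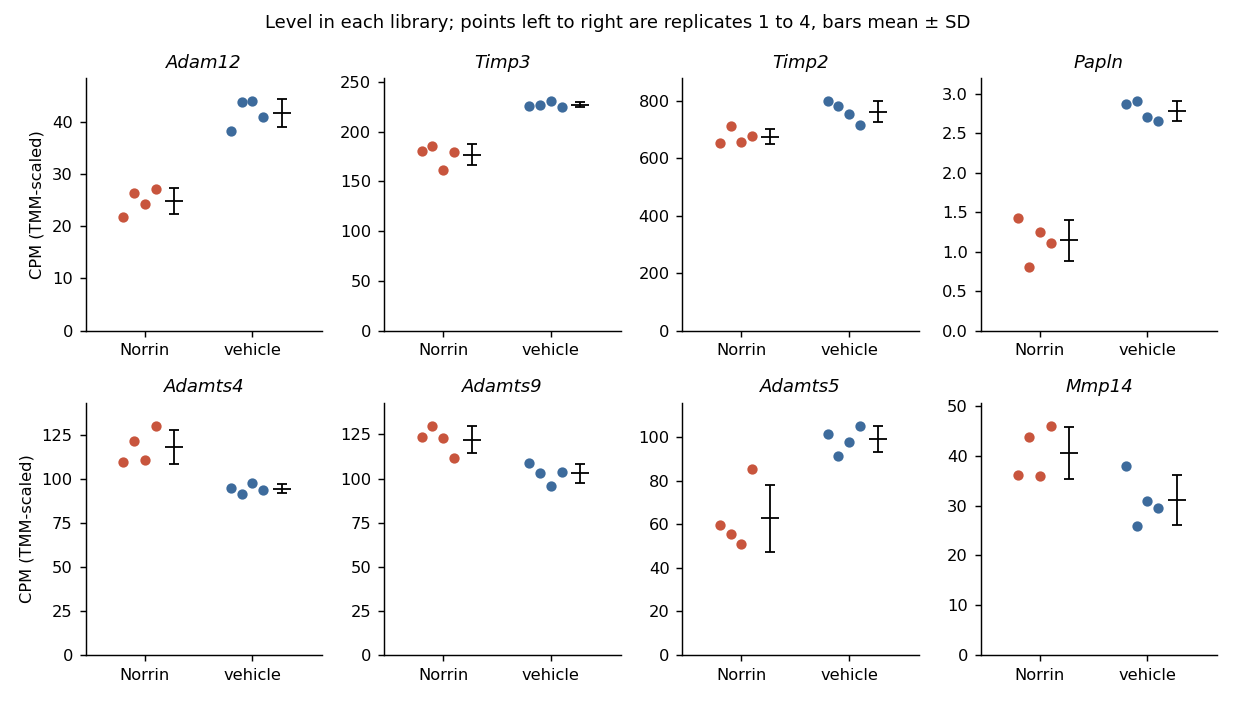
Level of 8 members in each library, in CPM, with Norrin left of vehicle, points for replicates 1 to 4 from left to right and bars for mean ± SD. In Adam12, Timp3, Timp2, Papln, Adamts4, Adamts9 and Adamts5 the groups do not overlap, while Norrin replicate 4 lies apart from the other Norrin libraries in Adamts5 and 1 vehicle library lies among the Norrin libraries in Mmp14.

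Of the 8 tested ADAMTS genes, 2 rose and 6 did not pass (25.0% called, against 2.17% of all tested genes). Adamts4 and Adamts5 encode the aggrecanases, which cut the core proteins of aggrecan and versican. Adamts4 measured 110, 122, 111 and 130 CPM in Norrin replicates 1 to 4, against 95.2, 91.5, 98.0 and 94.1 CPM in vehicle replicates 1 to 4. All Norrin libraries were above all vehicle libraries. Adamts4 thus differed by a log2 fold change of 0.32 ± 0.06 (SE; 1.25-fold, adjusted p = 0.00181, edgeR).

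Adamts9, a versican-cleaving protease known from small-vessel endothelium, measured 124, 130, 123 and 112 CPM in Norrin replicates 1 to 4, against 109, 103, 96.0 and 104 CPM in vehicle replicates 1 to 4. The groups did not overlap, but the lowest Norrin and the highest vehicle library were close. The log2 fold change was 0.25 ± 0.06 (SE; adjusted p = 0.0208, edgeR). The call was lost in 6 of the 8 fits that left out 1 library, those without Norrin replicate 1, 2 or 3 or vehicle replicate 2, 3 or 4, with an adjusted p of 0.0598 to 0.116 and a log2 fold change of 0.21 to 0.25.

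Adamts5 measured 59.7, 55.4, 50.8 and 85.3 CPM in Norrin replicates 1 to 4, against 102, 91.5, 98.0 and 105 CPM in vehicle replicates 1 to 4. Every Norrin library was below every vehicle library, and replicate 4 was far closer to vehicle than the other Norrin libraries. Its log2 fold change was −0.66 ± 0.16 (SE; 0.634-fold) and did not pass (adjusted p = 0.12, edgeR). It passed by DESeq2 (0.00776) and limma-voom (0.00155), and by edgeR without Norrin replicate 4, at −0.84 (1.01e-09), or without Norrin replicate 3, at −0.57 (0.0437). Over all 15 settings run the adjusted p spanned 1.01e-09 to 0.335.

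Adamts1 lies directly beside Adamts5 on chromosome 16, on the same strand, with no other protein-coding gene between their starts in GENCODE M21. Adamts1 measured 694, 666, 654 and 812 CPM in Norrin replicates 1 to 4, against 650, 589, 622 and 694 CPM in vehicle replicates 1 to 4, and the groups overlapped (log2 0.15, 95% interval −0.02 to 0.31, adjusted p = 0.515, edgeR). Norrin replicate 4 was the highest library for Adamts1, as it was the highest Norrin library for Adamts4 and Adamts5. Vehicle replicate 4 was likewise the highest vehicle library for Adamts1 and Adamts5, but not for Adamts4. Whether the replicates numbered 4 share a shift was not tested. Adamts10, a protease that binds fibrillin microfibrils, was at 27.0 ± 2.71 CPM under Norrin and 34.9 ± 5.25 CPM under vehicle with groups that did not overlap (log2 −0.38 ± 0.11 SE, adjusted p = 0.0653, edgeR). It passed by DESeq2 (0.0423) and without vehicle replicate 1 (0.0435) or 4 (0.04).

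Adamts6, a close relative of Adamts10, was at 5.09 ± 0.528 CPM under Norrin and 3.66 ± 1.13 CPM under vehicle (log2 0.48 ± 0.24 SE, adjusted p = 0.469, edgeR). Adamts12 was at 20.2 ± 1.5004 CPM under Norrin and 19.9 ± 1.52 CPM under vehicle, and Adamts7, which cuts cartilage oligomeric matrix protein, at 5.01 ± 0.953 and 4.70 ± 0.457 CPM. These 3 overlapped between the groups. Adamts17 had 7, 2, 1 and 1 counts in the Norrin libraries, against 8, 7, 11 and 10 in the vehicle libraries, and was not tested. The lowest vehicle count equalled the highest Norrin count, and the groups touched without overlap in CPM (0.474 in Norrin replicate 1, against 0.495 in vehicle replicate 2). Adamts16 had 6, 0, 4 and 16 counts under Norrin, against 19, 9, 13 and 7 under vehicle, with overlap and 1 library at 0. Under Norrin, Adamts16 and Adamts17 had a deposited RPKM of 0.045 and 0.048. Every row has a vehicle RPKM of at least 0.1, so genes this low under Norrin can appear only as lower.

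Because a ratio of 2 genes within a library does not depend on scaling, the aggrecanase genes were also set against each other. The ratio of Adamts4 to Adamts5 counts was 1.84, 2.20, 2.18 and 1.53 in Norrin replicates 1 to 4, against 0.936, 0.999, 0.999 and 0.893 in vehicle replicates 1 to 4. Adamts5 had slightly more counts than Adamts4 in every vehicle library and fewer in every Norrin library. The ratio of Adamts1 to its neighbour Adamts5 was 9.52 to 12.9 under Norrin and 6.35 to 6.59 under vehicle. These ratios were chosen after the values were seen and carry no test.

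**Figure D3:**
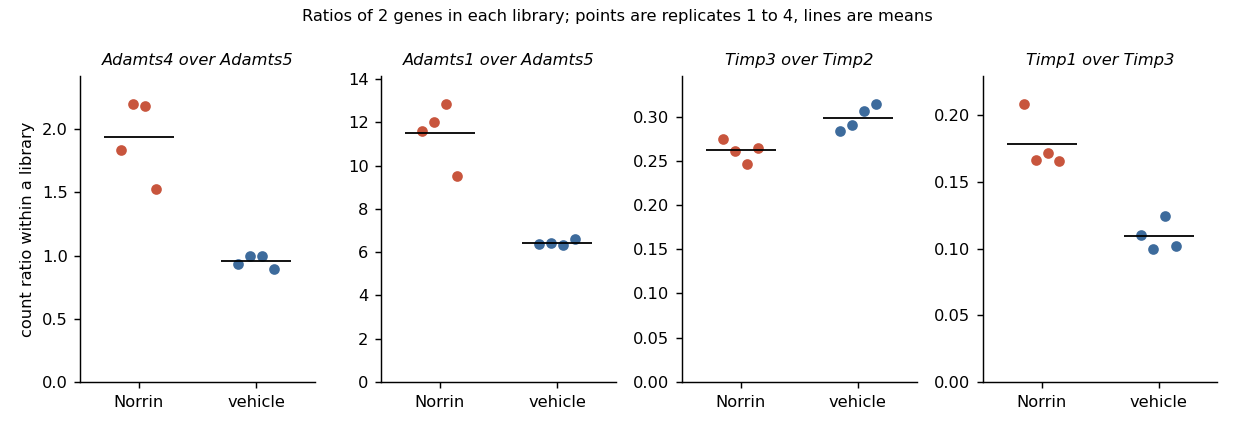
Ratio of the counts of 2 genes in each library, with Norrin left of vehicle, points for replicates 1 to 4 from left to right and lines for means. Adamts4 over Adamts5 averages 1.94 under Norrin and 0.957 under vehicle, and Timp1 over Timp3 averages 0.178 and 0.109, with no overlap between the groups in any of the 4 ratios.

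Of the 8 MMP genes, 0 passed by edgeR, although 2 had an unadjusted p under 0.05. DESeq2 called 1 of them and limma-voom 0, where they called 3.08% and 1.78% of all genes. Mmp14, the membrane-bound MMP that activates the precursor of MMP2, came closest. Mmp14 measured 36.2, 43.9, 36.0 and 46.1 CPM in Norrin replicates 1 to 4, against 37.99, 25.96, 30.9 and 29.5 CPM in vehicle replicates 1 to 4. Vehicle replicate 1 exceeded 2 of the Norrin libraries, so the groups overlapped. The log2 fold change was 0.38 ± 0.11 (SE; 1.31-fold, adjusted p = 0.0612, edgeR), and it passed by DESeq2 (0.0419), without vehicle replicate 1 (0.49, 0.00945) and without Norrin replicate 3 (0.44, 0.0429). Mmp2 itself, a gelatinase, was at 8.30 ± 1.88 CPM under Norrin and 6.15 ± 1.37 CPM under vehicle (0.43, 95% interval 0.02 to 0.85, adjusted p = 0.41, edgeR).

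Mmp15 was at 82.0 ± 11.6 CPM under Norrin and 87.1 ± 5.47 CPM under vehicle (log2 −0.09, 95% interval −0.25 to 0.08). The stromelysin genes Mmp11 and Mmp3 were at 4.03 ± 0.869 and 4.32 ± 0.947 CPM under Norrin and at 5.35 ± 0.742 and 5.37 ± 1.80 CPM under vehicle (−0.41 ± 0.23 and −0.31 ± 0.25 SE). Mmp28, Mmp19 and Mmp17 were at 1.62 to 2.91 CPM on average under Norrin and 1.62 to 2.77 CPM under vehicle, and the interval of Mmp19 ran from −0.78 to 0.78, so only large changes were detectable in them at this depth.

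Of the 3 TIMP genes, 2 fell and 1 did not pass (66.7% called, against 2.17% of all tested genes, a difference that carries no test). Timp3 measured 180, 186, 161 and 179 CPM in Norrin replicates 1 to 4, against 226, 227, 230 and 225 CPM in vehicle replicates 1 to 4. The vehicle libraries lay close together and every Norrin library was well below them. The fitted log2 change was −0.36 ± 0.05 (SE; 0.778-fold, adjusted p = 3.22e-05, edgeR). Timp3 lies within Syn3, a synapsin gene on the opposite strand, and shares exon sequence with it in GENCODE M21. Syn3 was at 1.43 CPM under Norrin and 1.116 CPM under vehicle.

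Timp2, whose product also takes part with MMP14 in the activation of MMP2, measured 655, 712, 656 and 678 CPM in Norrin replicates 1 to 4, against 798, 781, 753 and 715 CPM in vehicle replicates 1 to 4. The groups did not overlap, but Norrin replicate 2 lay just below vehicle replicate 4. The fitted log2 change was −0.17 ± 0.04 (SE; 0.886-fold, adjusted p = 0.0135, edgeR). The call was lost without Norrin replicate 1 (0.0583) or 3 (0.07) or vehicle replicate 1 (0.0793) or 2 (0.077), at −0.15 to −0.16.

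Timp1 pointed the other way. Timp1 measured 37.6, 30.9, 27.7 and 29.6 CPM in Norrin replicates 1 to 4, against 24.9, 22.6, 28.7 and 22.9 CPM in vehicle replicates 1 to 4, with 1 Norrin library below the highest vehicle library. Timp1 had a log2 fold change of 0.34 ± 0.11 (SE; adjusted p = 0.119, edgeR) and did not pass in any of the 15 settings run. Within libraries, the ratio of Timp3 to Timp2 counts was 0.246 to 0.275 under Norrin and 0.283 to 0.315 under vehicle. The ratio of Timp1 to Timp3 counts was 0.165 to 0.209 under Norrin and 0.0998 to 0.125 under vehicle. Both separated the groups and carry no test.

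Of the 4 genes for ADAMTS-like proteins and papilin, matrix proteins built like ADAMTS enzymes without the protease domain, 1 fell and 3 did not pass. The share called was 25.0%, against 2.17% of all tested genes. Papln had 21, 11, 17 and 15 counts in the Norrin libraries, against 36, 41, 42 and 33 in the vehicle libraries, or 1.42, 0.802, 1.24 and 1.11 CPM against 2.87, 2.90, 2.70 and 2.65 CPM. The groups did not overlap, but the counts are low. Papln had a log2 fold change of −1.27 ± 0.33 (SE; 0.414-fold, adjusted p = 0.0331, edgeR), the largest among the members tested, and the call was lost in all 8 fits that left out 1 library (0.0582 to 0.141, at −1.39 to −1.14). Adamtsl5 was at 13.9 ± 3.51 CPM under Norrin and 14.9 ± 1.95 CPM under vehicle. Adamtsl4 was at 6.997 ± 1.97 CPM under Norrin and 6.48 ± 0.490 CPM under vehicle, and Adamtsl1 at 4.37 ± 1.22 and 4.62 ± 0.647 CPM. These 3 overlapped between the groups.

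**Figure D4:**
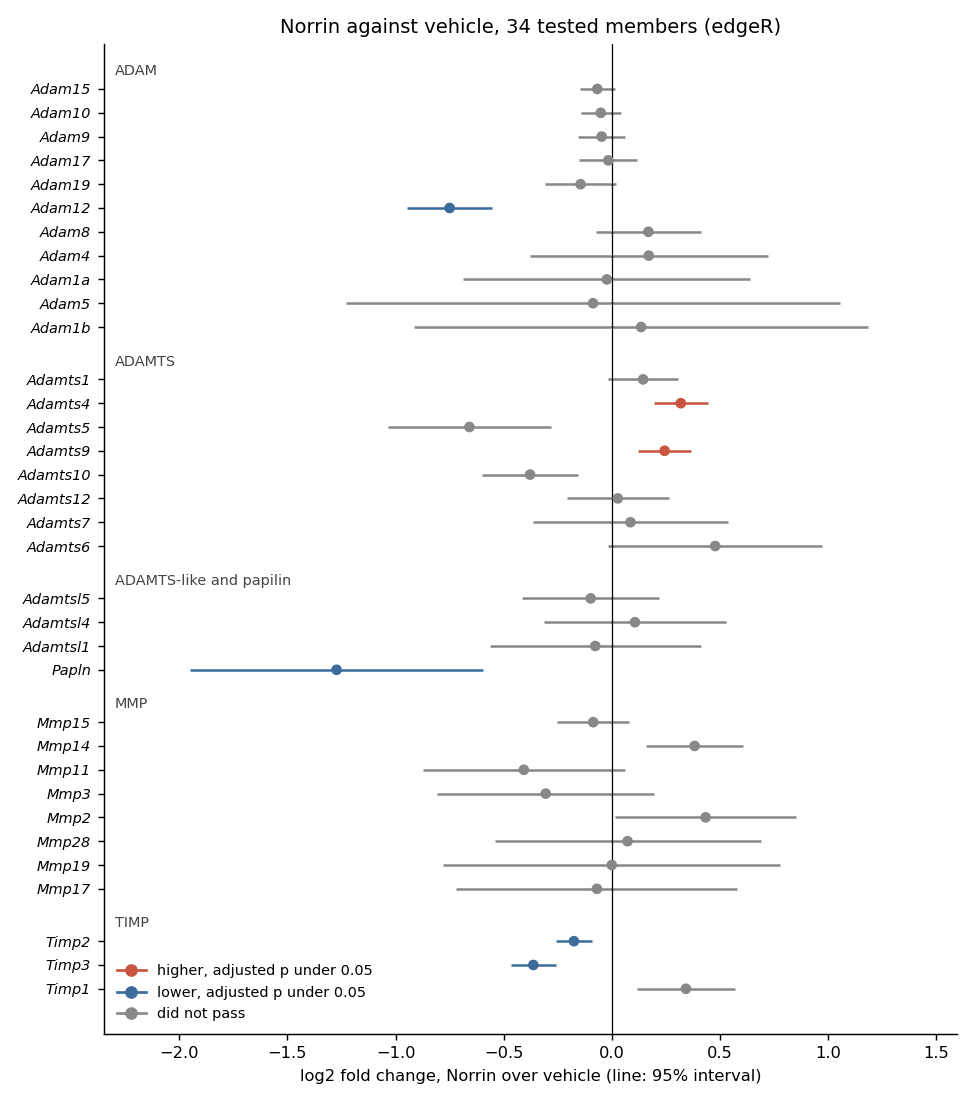
Log2 fold change, Norrin over vehicle, of the 34 tested members with its 95% interval (edgeR), by family and ordered by deposited vehicle RPKM. The calls are Adamts4 and Adamts9 above 0 and Adam12, Papln, Timp2 and Timp3 below 0, and the abundant Adam15, Adam10, Adam9 and Adam17 lie within 0.07 of 0.

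In all, 8 tested members had groups that did not overlap: Adamts4 and Adamts9 were higher, and Adam12, Timp3, Timp2, Papln, Adamts5 and Adamts10 lower. Among all tested genes 3.43% were so separated upward and 3.58% downward. The count of members called depended on the method. DESeq2 called 9, adding Adamts5, Adamts10 and Mmp14, where it called 3.08% of all genes with an adjusted p. Limma-voom called 7, adding Adamts5, against 1.78% of all genes. Without Norrin replicate 4, edgeR called 6, with Adamts5 in place of Papln, against 3.26% of all genes. Adam12, Timp3 and Adamts4 passed in all 15 settings at the threshold of 0.05.

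**Figure D5:**
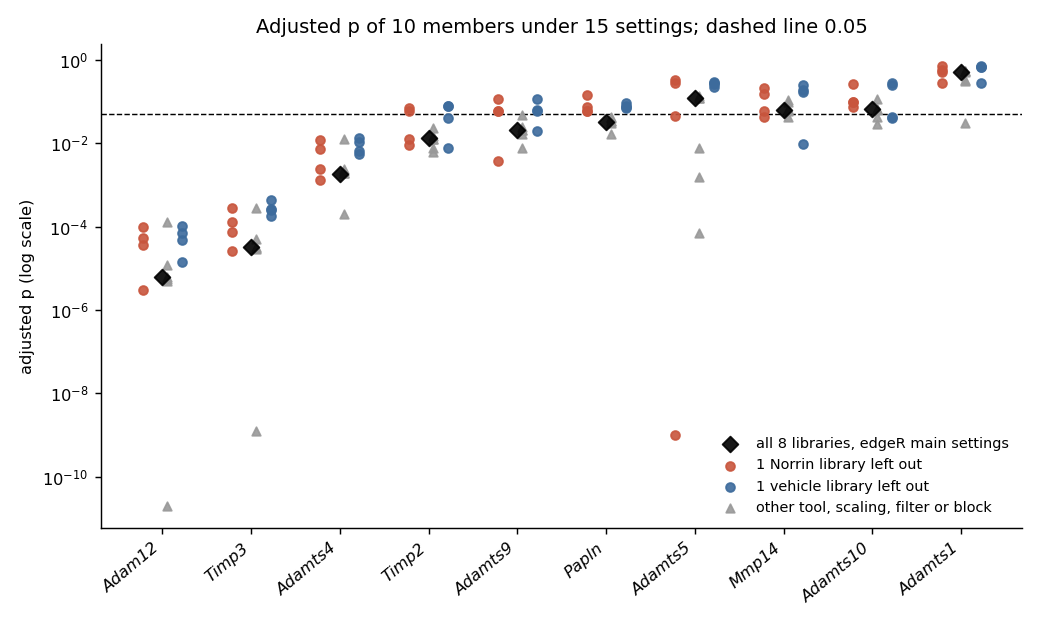
Adjusted p on a log scale of 10 members under 15 settings, with diamonds for edgeR on all 8 libraries, circles for fits without 1 Norrin or 1 vehicle library, and triangles for another tool, scaling, filter or the replicate block. Adam12, Timp3 and Adamts4 lie below the dashed line at 0.05 throughout, Papln crosses it whenever a library is left out, and Adamts5 spans 1.01e-09 to 0.335.

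Genes around these proteases were taken from lists. Among 18 tested regulators of metalloproteinases, which include tetraspanins, rhomboid-like proteins and proprotein convertases that activate precursors, 1 rose and 17 did not pass. Pcsk6, a convertase held at the matrix, measured 194, 200, 191 and 181 CPM in Norrin replicates 1 to 4, against 149, 145, 147 and 145 CPM in vehicle replicates 1 to 4 (log2 0.38 ± 0.05 SE, adjusted p = 1.41e-05, edgeR). The groups were far apart. The convertase gene Furin was at 610 ± 42.0 CPM under Norrin and 604 ± 26.3 CPM under vehicle, and Reck, a membrane-bound MMP inhibitor, at 7.70 ± 0.740 and 8.21 ± 1.04 CPM, neither past the threshold. The list's median log2 fold change was −0.03, and 5.56% of its tested genes were called, against 2.17% of all tested genes.

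Among 7 other tested metallopeptidase genes and partners, 1 fell and 6 did not pass (14.3% called, against 2.17% of all tested genes). Tll1, a tolloid-like protease that processes procollagens and the BMP antagonist chordin, measured 47.9, 45.7, 41.3 and 43.7 CPM in Norrin replicates 1 to 4, against 70.9, 59.2, 61.6 and 68.9 CPM in vehicle replicates 1 to 4 (log2 −0.54 ± 0.08 SE, adjusted p = 5.23e-05, edgeR). All Norrin libraries were lower. Its relative Bmp1 was at 57.4 ± 2.84 CPM under Norrin and 57.4 ± 5.66 CPM under vehicle. Among 8 tested genes of the plasminogen axis, the serine protease system that can activate MMPs, 0 passed by edgeR, although 3 had an unadjusted p under 0.05. DESeq2 and limma-voom each called 0. EdgeR without Norrin replicate 4 called 2, Plau and S100a10, where it called 3.26% of all genes. The median log2 fold changes of these lists were −0.07 and 0.03.

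Of 27 tested genes for proteins that ADAM proteases release from endothelial or other cells, 2 rose and 25 did not pass. The share called was 7.41%, against 2.17% of all tested genes. DESeq2 called 4 of them, limma-voom 2, and edgeR without Norrin replicate 4 called 4. Of all genes these fits called 3.08%, 1.78% and 3.26%. Il6ra, the interleukin 6 receptor gene, measured 11.8, 14.6, 14.996 and 15.5 CPM in Norrin replicates 1 to 4, against 6.38, 6.16, 5.72 and 7.31 CPM in vehicle replicates 1 to 4 (log2 1.15 ± 0.16 SE, adjusted p = 2.17e-05, edgeR). Hbegf, encoding the growth factor HB-EGF, was at 41.7 ± 3.23 CPM under Norrin and 31.2 ± 1.35 CPM under vehicle (0.42 ± 0.09, 0.00554). Both genes had all Norrin libraries above all vehicle libraries. The list's median was −0.05, and Notch1, a target of ADAM10, was at 653 ± 36.0 CPM under Norrin and 674 ± 22.8 CPM under vehicle.

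Of 21 tested matrix genes whose products ADAMTS or MMP enzymes cut, 2 rose, 1 fell and 18 did not pass (median −0.05). The share called was 14.3%, against 2.17% of all tested genes. Without Norrin replicate 4, 6 passed, where 3.26% of all genes did. Thbs1, encoding thrombospondin 1, measured 138, 150, 135 and 139 CPM in Norrin replicates 1 to 4, against 86.9, 92.8, 91.6 and 112 CPM in vehicle replicates 1 to 4 (log2 0.55 ± 0.07 SE, adjusted p = 2.71e-06, edgeR). All Norrin libraries were higher. Col18a1, the gene of the collagen that releases endostatin, and Fn1, the fibronectin gene, had log2 fold changes of 0.14 ± 0.04 and −0.24 ± 0.03 (SE) and also passed (adjusted p = 0.039 and 1.86e-06, edgeR). The groups overlapped in Col18a1, which passed in 8 of 15 settings, and not in Fn1. Fbn1, the fibrillin 1 gene, did not pass (log2 0.71 ± 0.17 SE, adjusted p = 0.12, edgeR) and is named after its values were seen. Fbn1 was at 183, 222, 198 and 129 CPM in Norrin replicates 1 to 4, against 115, 110, 118 and 105 CPM in vehicle replicates 1 to 4. The groups did not overlap. Norrin replicate 4 was the Norrin library closest to vehicle, and vehicle replicate 4 was the lowest vehicle library. Vcan, the versican gene and the best known proteoglycan target of ADAMTS1, ADAMTS4, ADAMTS5 and ADAMTS9, was at 1.02 ± 0.733 CPM under Norrin and 1.33 ± 0.637 CPM under vehicle, and Acan, Bcan and Ncan were not analysed here.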

How the data were processed

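RNA-seq libraries of 4 Norrin and 4 vehicle cultures were compared. Total RNA was depleted of ribosomal RNA and made into libraries with a low-input kit, per the labels' protocols. The authors deposited estimated counts per gene and library, not normalised, and the submitters' processing notes name STAR with no version. Genome build, annotation, counter and strand use: not given in the sources used here. Therefore overlapping, antisense and near-identical genes are uncertain. The authors also deposited 1 RPKM per gene and group, with their ratio as a fold. Of 123616 counts 763 were not whole, and all were rounded. A row without a name or counts was left out.

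Tests used edgeR 4.0.16 under R 4.3.3 (filterByExpr, TMM, robust quasi-likelihood fit, two-sided) with Benjamini-Hochberg adjustment over 13666 genes; 1786 others had low counts. SE is the log2 fold change over the root of its F statistic, and 95% intervals use the t quantile. The common dispersion corresponds to 11.2% variation between replicates. On simulated data with 13666 genes and this comparison's means, the edgeR step recovered 14% of 50 genes given a 1.2-fold change. Recovery was 60% for 50 genes given 1.5-fold, 78% for 2-fold and 90% for 4-fold. Of 127 calls, 6 were false. DESeq2 1.42.0, limma 3.58.1 (voom), other scaling and filters, a replicate block, left-out libraries and a threshold of 0.01 were the alternatives. Libraries of the same group all differed by more than counting error, with a chi-square of 5.73 to 15.6 per degree of freedom.

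The members and lists were chosen with earlier results of these data known. Members are named with values where they passed, passed in an alternative, had groups that did not overlap or were among the 4 highest of their family, and other members are given more briefly. Floors and counts cover counting error only.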

Additional observations from a re-analysis of the deposited data

Results flagged for a closer look

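In 2 of 74 groups of 4 libraries checked over the 37 members, 1 library lay far from the other 3 relative to the group's range, where chance gives about 1 in 20. Adamts6 was at 4.30 CPM in Norrin replicate 2, against 5.34 to 5.38 CPM in the other Norrin libraries. Adam4 was at 1.68 CPM in vehicle replicate 1, against 4.18 to 4.31 CPM in the other vehicle libraries. Neither gene was called in any setting run.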

How the results depend on the processing

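Over all genes, 296 were called, 164 higher and 132 lower. Leaving out 1 library gave 206 to 452, with 110 to 235 higher and 84 to 217 lower, the highest of each being without Norrin replicate 4, and the fewest lower calls (84) without Norrin replicate 1. Of the members, 6 were called, and 3 to 6 with 1 library left out, with 1 to 3 higher and 2 to 4 lower. Of the same 6 genes, 3 to 5 remained called in those fits. List genes called numbered 7, and 6 to 14 with 1 library left out, 14 without Norrin replicate 4. At a threshold of 0.01, 171 genes were called, 99 higher and 72 lower, and 3 members, 1 higher and 2 lower. DESeq2 size factors, no filter and a stricter filter each called the same 6 members. Among the members followed through every setting, signs turned only in 3 that did not pass. Log2 fold changes with 1 library left out ran from −0.072 to 0.031 for Adam17 (positive without Norrin replicate 2 or 4 or vehicle replicate 2). They ran from −0.28 to 0.040 for Adamtsl1 (positive without Norrin replicate 2) and from −0.064 to 0.27 for Adamtsl4 (negative without Norrin replicate 4). The cause of these shifts was not tested. Over the tested genes same-numbered libraries correlated at −0.019 to 0.074, and not every library correlated best with its own number. Such a correlation can miss a shift shared in only some genes, so it does not settle whether the libraries were paired. With the replicate number as a block, 402 genes and 9 members were called, adding Adamts1 (0.0301), Adamts5 (6.94e-05) and Adamts10 (0.0291). The SE with the block was 0.036 for Adamts1 and 0.083 for Adamts5, against 0.073 and 0.16 without it. Depth limits the members with few counts: the interval of Mmp19 ran from −0.78 to 0.78.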

Other observations

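The deposited fold and the ratio of mean CPM differed by a factor of over 1.1 in 6 of the 37 members. Adam17 had a fold of 1.12 in the authors' deposited table and a CPM ratio of 0.989, so the directions differed. Adamts10 had a fold of 0.851 in the authors' deposited table and a CPM ratio of 0.772. Adamtsl5 had a fold of 0.757 in the authors' deposited table and a CPM ratio of 0.937. Adamts16 had a fold of 0.165 in the authors' deposited table and a CPM ratio of 0.529, and Adamts17 had 0.213 and 0.29. Adam1b, at 0.993 and 1.12, was the other one.

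Norrin replicate 4 stood apart for some members and not for others. Vehicle replicate 4 was itself the highest vehicle library for Adamts1 (694 CPM) and Adamts5 (105 CPM), but not for Adamts4, Adamts9 or Timp3. Relative to the vehicle mean, Adamts5 was at −0.22 on the log2 scale in Norrin replicate 4 and at −0.73 to −0.96 in the other Norrin libraries. Adamts9 was at 0.12 in replicate 4 and at 0.25 to 0.34 in the others. For Adamts4 replicate 4 was the farthest from vehicle, at 0.46 against 0.21 to 0.37, and for Timp3 it lay among the others, at −0.34 against −0.29 to −0.49.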
